A study of Homo sapiens with 12 samples.

Results

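The question here was which genes responded differently to loss of FBXO11 in Raji and in Daudi, 2 established cell lines grown from Burkitt lymphoma, a tumour of germinal centre B cells. All 12 libraries of the series entered, in 4 groups, and 12027 genes were tested. For each gene the knockout change in Daudi was subtracted from the knockout change in Raji, and this difference, on the log2 scale, was tested in 1 model. A positive difference means that the change was higher in Raji. Of 12027 genes, 93 (0.773%) had an adjusted p under 0.05 in edgeR's quasi-likelihood test and are called different here. They were then sorted by the change within each line, counted as present at an unadjusted p under 0.05, which 15.8% of all genes reached in Raji and 14.4% in Daudi. In 25 genes (0.208% of those tested) the lines changed in opposite directions, in 15 (0.125%) Raji alone changed, in 51 (0.424%) Daudi alone changed, and in 2 (0.0166%) both changed the same way by different amounts.

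Raji was represented by 4 libraries of wild-type cells and 4 of FBXO11 knockout cells, and Daudi by 2 of each. The knockouts had been made by lentiviral delivery of Cas9 with 2 guides, followed by selection with puromycin and growth from single cells, and clones lacking FBXO11 were kept after western blotting and sequencing of the target on both alleles. The labels name no other treatment of the cultures. The wild-type libraries are not described as having received the vector or puromycin, and nothing in the labels links a knockout library to a clone or guide, so that a feature of single clones and an effect of FBXO11 loss cannot be told apart. Nothing states that replicates grew as separate cultures. The p-values therefore rest on the differences among these libraries, part of which can be technical. In RNA from whole cultures, fewer cells of a kind and less RNA per cell cannot be told apart either.

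FBXO11 is the subunit of an SCF ubiquitin ligase that binds the proteins to be degraded. Among them is BCL6, the transcriptional repressor that holds B cells in the germinal centre state and that binds, besides many other genes, its own. Interferon-stimulated genes are a second programme that matters below: interferon signals through factors such as STAT2 and IRF9, which bind a short promoter sequence, the interferon-stimulated response element, and raise sensors of viral RNA such as IFIH1 and effectors such as ISG15, OAS1 and the IFIT proteins.

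Both guides match exon 4 of FBXO11, a minus-strand gene at 47789316 to 47905793 on chromosome 2 (GRCh38, GENCODE 29). They are shown because the labels give the same sites for both lines, with the neighbouring PAM in capitals. Guide 1 matches chr2:47838980-47838998 and guide 2 matches chr2:47838926-47838945, both on the transcript's strand.
Guide 1: cctgctgaacagtatcttcAGG
Guide 2: cttctcttacttgctggaacAGG

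FBXO11 mRNA itself was 118, 68.6, 88.0 and 82.96 CPM in Raji wild-type libraries 1 to 4 and 72.1, 70.6, 34.1 and 47.9 CPM in the knockout libraries. The Daudi levels were 81.8 and 51.7 CPM in wild type and 88.4 and 92.8 CPM in knockout. CPM are counts divided by library size after trimmed-mean scaling, on the usual CPM scale. Raji knockout overlapped wild type, and both Daudi knockout libraries lay above wild type. The log2 change was -0.67 in Raji and 0.44 in Daudi, and their difference of -1.11 (SE 0.43) was not called (adjusted p = 0.287). A count over the whole transcript does not read an edit in exon 4 and so does not check the labels, and 26.9% of the exonic bases of FBXO11 overlap a gene on the other strand, which the library kit does not separate.

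Total counts ran from 11.2M to 23.6M per library. The level that 3 counts stand for, the floor used below, was 0.127 to 0.269 CPM by library, and it covers counting error alone. All 12 B cell markers looked at were detected in every group, with a summed level of 2845 to 4150 CPM. T and NK cell markers stayed at or under 15.2 CPM in sum. Myeloid markers summed to 31.1 to 60.3 CPM in Daudi wild type, 14.3 to 21.4 CPM in Daudi knockout and 1.03 to 7.997 CPM in Raji, with MPO, ELANE, S100A8 and S100A9 at 0 in Daudi wild type. Their part in the results was not tested. Raji wild-type libraries 3 and 4 were far closer to each other (chi-square per degree of freedom 2.18) than the other 13 pairs within a group (21.9 to 171), and the 2 Daudi wild-type libraries were the most unlike (171). Both facts bear on the counts below, which are therefore also given without single libraries.

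**Figure D1:**
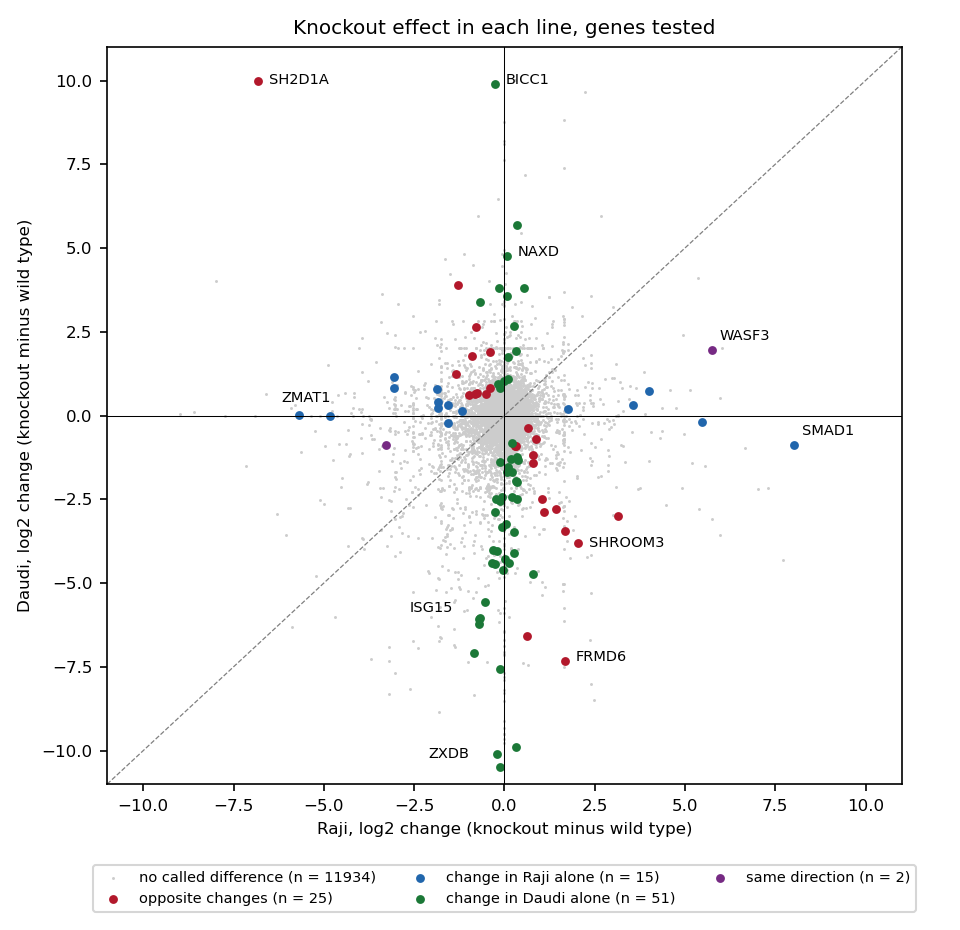
Each point is 1 of the 12027 genes tested, with the log2 change of knockout against wild type in Raji on the x axis and in Daudi on the y axis. Genes of the 4 classes are coloured, the dashed line marks equal changes, and 3 genes lie outside the axes. Most called genes lie along the vertical axis, that is, they changed in Daudi alone.

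In 25 genes the lines moved apart. In 14 (0.116%) the transcript rose in Raji and fell in Daudi, with median log2 changes of 0.96 and -2.64, and in 11 (0.0915%) it fell in Raji and rose in Daudi, with medians of -0.81 and 1.25. Knockout and wild-type libraries did not overlap in either line for 20 of the 25. Over all genes tested this held for 5.72%, and the libraries did not overlap for 11.8% in Raji and 39.7% in Daudi. The 25 were sorted by a p in each line from these same libraries. Their few overlaps follow largely from that sorting and are no separate support. The Daudi change was the larger in 18. Opposite signs are common without any test, at 48.9% of all genes, but both lines had an unadjusted p under 0.05 in opposite directions in 103 genes (0.856%), against 271 (2.25%) in the same direction. After adjustment over all genes within each line, 2 genes (0.0166%) passed in both lines in opposite directions, SHROOM3 and CPEB4, against 19 (0.158%) in the same direction. For 17 of the 25 the Raji change, and for 8 the Daudi change, passed only before adjustment. The weakest was N4BP1, at an unadjusted p of 0.0487 in Raji.

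SHROOM3 encodes an actin-binding protein that shapes the apical surface of epithelial cells. It was 9.43, 4.22, 2.51 and 2.72 CPM in wild-type Raji and 29.8, 17.9, 15.0 and 14.9 CPM in Raji knockout. In Daudi the level was 6.06 and 3.51 CPM in wild type and 0.434 and 0.236 CPM in knockout. The wild-type lines thus stood at the same level and parted after knockout, without overlap in either. The log2 change was 2.04 (SE 0.43, adjusted p = 0.0296) in Raji and -3.81 (SE 0.73, adjusted p = 0.0179) in Daudi, and the difference was 5.85 (SE 0.85, adjusted p = 0.00991). SHROOM3 lies on chromosome 4 from 76435100 to 76783253. Without Daudi knockout replicate 1 or 2 the difference was 6.35 and 5.48 and missed the threshold (adjusted p = 0.0578 and 0.123).

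CPEB4, which binds elements in the 3′ end of mRNAs and controls their translation, was 30.8, 29.6, 23.7 and 25.7 CPM in wild-type Raji and 40.4, 52.4, 41.2 and 54.5 CPM in Raji knockout. In Daudi it was 15.4 and 21.4 CPM in wild type and 7.10 and 6.68 CPM in knockout. All knockout libraries lay above wild type in Raji and below it in Daudi. The log2 changes were 0.78 (SE 0.16, adjusted p = 0.0254) and -1.42 (SE 0.23, adjusted p = 0.00797), and the difference was 2.19 (SE 0.28, adjusted p = 0.00559). It was called in 11 of the 12 fits that each left out 1 library, with a difference of 1.94 to 2.42. The exception was the fit without Daudi knockout replicate 2.

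Of the named genes that rose in Raji and fell in Daudi, FCRL3, CEACAM1 and SSTR3 encode surface receptors. FCRL3, an Fc receptor-like protein of B cells, was 126, 68.1, 105 and 105 CPM in wild-type Raji and 164, 135, 226 and 333 CPM in knockout. In Daudi it went from 116 and 75.7 CPM to 10.4 and 15.5 CPM. The log2 changes were 1.09 and -2.88, and the difference was 3.97 (SE 0.52, adjusted p = 0.00559). The Daudi change passed after adjustment (adjusted p = 0.00608), whereas the Raji change did not (adjusted p = 0.074). CEACAM1, an adhesion receptor with an inhibitory tail, was 2.75 to 5.38 CPM in the 4 Raji wild-type libraries and 8.59 to 16.5 CPM in knockout, and in Daudi 63.3 and 18.7 CPM in wild type and 7.61 and 4.32 CPM in knockout. Its difference was 4.21 (SE 0.67, adjusted p = 0.0169), and 3.08 (adjusted p = 0.0571) without Daudi wild-type replicate 1. SSTR3, a somatostatin receptor, was close to the counting floor in Raji, at 0.109 to 0.333 CPM in wild type and 0.374 to 0.936 CPM in knockout. Its Daudi levels of 94.5 and 18.3 CPM in wild type and 3.94 and 6.36 CPM in knockout gave a change of -3.45, against 1.68 in Raji, and a difference of 5.13 (SE 0.93, adjusted p = 0.0322), which lost its call (adjusted p = 0.104) without Daudi wild-type replicate 1.

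TAF4B, a subunit of the TFIID complex that is abundant in B cells, showed the Raji change more firmly than the Daudi change. It was 70.2 to 87.1 CPM in wild-type Raji and 133 to 160 CPM in knockout, and in Daudi 339 and 239 CPM in wild type and 164 and 193 CPM in knockout. The levels of the lines were therefore closer to each other after knockout than before. The log2 changes were 0.88 (adjusted p = 0.0058) and -0.69 (adjusted p = 0.0863), with a difference of 1.57 (SE 0.24, adjusted p = 0.0123). N4BP1, an RNA-binding protein that dampens inflammatory signalling, had a small Raji change of 0.29 and a Daudi change of -0.90, with a difference of 1.19 (SE 0.23, adjusted p = 0.0382). OAS1, which makes the messenger that activates RNase L, was the interferon-stimulated gene of this class. It was 6.78 to 10.6 CPM in wild-type Raji and 9.94 to 28.4 CPM in Raji knockout, which overlap, and fell from 354 and 141 CPM to 52.1 and 35.9 CPM in Daudi, with a difference of 3.54 (SE 0.61, adjusted p = 0.0254). Without Daudi wild-type replicate 1 it was 2.73 (adjusted p = 0.0979).

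Of the genes that fell in Raji and rose in Daudi, SH2D1A had the largest difference. It encodes SAP, the adaptor of SLAM family receptors that is best known from T and NK cells and is mutated in X-linked lymphoproliferative disease, and lies on chromosome X from 124227868 to 124373197. It was 2.15, 0.55, 0.109 and 0.111 CPM in wild-type Raji and 0 CPM in all 4 Raji knockout libraries. Daudi had 0.083 and 0 CPM in wild type and 42.7 and 62.1 CPM in knockout. From the summed counts SH2D1A was at least 17.3-fold lower in Raji knockout, a bound that is 5.09-fold without Raji wild-type replicate 1, which held 36 of the 46 counts. It was 1162-fold higher in Daudi knockout, with a counting interval of 321 to 9601 that leaves out the spread between libraries. The Raji side thus rests on a transcript at or under the floor in 2 wild-type libraries, and the Daudi side on an appearance in both knockout libraries. The fitted difference of -16.82 (SE 2.24, adjusted p = 0.0169) depends on how zeros are handled and is no bound. Of the 14 T and NK cell markers, 6 were at 0 in Daudi wild type and 5, CD2, CD3D, CD5, CD8A and CD8B, in Daudi knockout, and their summed level was 12.8 to 15.2 CPM in wild type and 13.01 to 15.2 CPM in knockout. The 5 markers that passed the filter on low counts had a median level of 0.747 and 0.988 CPM in Daudi wild type and 1.89 and 2.59 CPM in Daudi knockout, and 0 of them were called. Their part in the SH2D1A result was not tested.

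BCL6 belonged to the same class. Its levels were 302, 426, 454 and 442 CPM in wild-type Raji and 191, 295, 240 and 237 CPM in Raji knockout, against 157 and 195 CPM in Daudi wild type and 278 and 281 CPM in Daudi knockout. Neither line's groups overlapped, and the knockout libraries of both lines met in 1 range although the wild-type levels of Raji were all above those of Daudi. The Raji change was -0.75 (SE 0.17, adjusted p = 0.0352), the Daudi change 0.67 (SE 0.24, unadjusted p = 0.0151, adjusted p = 0.189) and the difference -1.42 (SE 0.29, adjusted p = 0.0483). In the 12 fits without 1 library the difference stayed between -1.59 and -1.28 and was called in 3, those without Raji wild-type replicate 1, Raji knockout replicate 2 or Daudi wild-type replicate 2. The lowest value came without Daudi wild-type replicate 2 and the highest, with an adjusted p of 0.222, without Daudi wild-type replicate 1. The gene spans 187721377 to 187745727 on chromosome 3, minus strand.

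BCL6 is known to repress its own gene through sites in its first exon. The letters TTCCTNGAA, the core of the sequence that BCL6 binds, were searched on both strands in 300 bases of RefSeq promoter sequence (GRCh38.p14, 250 before and 50 after each start site). They occurred in 103 of 9699 promoters of tested genes (1.06%) and in 3 of 77 promoters of called genes (3.9%). By class, they occurred in 0 of 13 of Raji alone, and in 1 of 28 fallen (3.57%) and 0 of 11 risen in Daudi alone. Among the 23 promoters of genes with opposite changes they occurred in those of BCL6 and SHROOM3 (8.7%). Both stretches are shown because these genes have opposite changes and the match, in capitals, lies in the window. The BCL6 stretch is chr3:187745419-187745442 on the minus strand, after the start site, and the SHROOM3 stretch is chr4:76434995-76435083 on the plus strand, before it. Both read TTCTAGGAA, which is the search letters on the other strand. A match describes the letters and does not show that the protein binds there.
BCL6: tgcaagaagtTTCTAGGAAaggcc
SHROOM3: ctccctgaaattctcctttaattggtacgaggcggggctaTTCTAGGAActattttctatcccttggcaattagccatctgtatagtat

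SLC19A2, a thiamine transporter, was 4.00, 4.40, 4.31 and 4.05 CPM in wild-type Raji and 1.11, 1.62, 1.72 and 2.19 CPM in Raji knockout. The Daudi levels were 7.09 and 7.66 CPM in wild type and 13.8 and 21.3 CPM in knockout. The difference was -2.58 (SE 0.41, adjusted p = 0.017), with the Raji change of -1.33 passing after adjustment (adjusted p = 0.0149) and the Daudi change of 1.25 not (adjusted p = 0.071). ACY1, an enzyme that deacetylates amino acids, was 28.1 to 39.4 CPM in wild-type Raji and 15.2 to 26.2 CPM in Raji knockout, against 0.705 and 0.692 CPM in Daudi wild type and 3.04 and 5.78 CPM in Daudi knockout, with a difference of -3.42 (SE 0.45, adjusted p = 0.00559). On its own strand 78.2% of its exonic bases overlap another annotated gene, so its reads may be shared. NHEJ1, the end-joining factor XLF, was 24.2 to 29.9 CPM in wild-type Raji and 19.5 to 21.6 CPM in Raji knockout, while in Daudi it went from 9.33 and 9.44 CPM to 15.5 and 17.6 CPM. Its difference was -1.23 (SE 0.21, adjusted p = 0.0254), and 65.4% of its exonic bases overlap another gene on the same strand.

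NEK6, a mitotic kinase, was 204 to 234 CPM in wild-type Raji and 94.4 to 159 CPM in Raji knockout, and 27.7 and 37.2 CPM in Daudi wild type and 55.2 and 46.8 CPM in knockout. NETO2, an auxiliary subunit of kainate receptors, was 29.7 to 43.5 CPM in wild-type Raji and 14.5 to 20.6 CPM in Raji knockout, and 11.7 and 17.6 CPM in Daudi wild type and 21.1 and 24.04 CPM in knockout. For both, the knockout levels of the lines were nearer to each other than the wild-type levels. The differences were -1.46 (SE 0.30, adjusted p = 0.0483) and -1.61 (SE 0.31, adjusted p = 0.0383). SMCO4 was 11.1 to 18.6 CPM and 6.36 to 10.3 CPM in wild-type Raji and knockout and 5.14 to 5.68 CPM and 15.5 to 21.5 CPM in Daudi, with a difference of -2.68 (SE 0.40, adjusted p = 0.0132).

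Another 8 genes of the class fell outside the naming rule and are named here after their values were seen. FRMD6, a scaffold of the Hippo pathway, was 0.358 to 0.983 CPM in wild-type Raji and 1.65 to 2.57 CPM in knockout, and in Daudi 4.52 and 3.80 CPM in wild type and 0.039 and 0 CPM in knockout. KIAA1586 was 2.57 to 3.66 CPM and 4.24 to 5.01 CPM in wild-type Raji and knockout, and in Daudi 0.581 and 0.642 CPM in wild type and 0 in both knockout libraries, at least 10.3-fold lower. Its Raji change passed only before adjustment (adjusted p = 0.264). Only these 2 of the 25 were called in all 12 fits that left out 1 library. IMPA2, an inositol phosphatase, fell in Raji by 0.41 and rose in Daudi by 1.89 on the log2 scale, with a difference of -2.30 (SE 0.30, adjusted p = 0.00559). The others were CASP4, CHD1 and ZBTB33, with differences of 6.12, 1.22 and 1.02, and SPRY3 and ARPC2, with differences of -5.18 and -1.16. CASP4 had Raji means of 0.112 CPM in wild type, near the floor, and 0.885 CPM in knockout. The Raji groups of CASP4, CHD1, SPRY3 and IMPA2 overlapped, and those of ZBTB33 and ARPC2 did not. SPRY3 lies in the region that the X and Y chromosomes share.

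A change in Raji alone was found for 15 genes, 5 risen (0.0416% of those tested) and 10 fallen (0.0831%). All 15 also passed adjustment within Raji, and their median log2 change was 4.00 for the risen and -1.86 for the fallen. None of them was silent in Daudi: 0 of the 15 had a mean under 1 CPM in both Daudi groups. The 95% interval of the Daudi change lay within 2-fold either way for 6 of the 15. For the other 9 it reached past 2-fold, so that a Daudi change of that size is inside the interval. In 10 the Daudi change had the opposite sign.

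SMAD1, the transcription factor that relays bone morphogenetic protein signals, was 0.119, 0.0917, 0.0546 and 0 CPM in wild-type Raji and 24.9, 3.92, 13.5 and 30.1 CPM in Raji knockout. In Daudi it was 6.93 and 11.6 CPM in wild type and 4.65 and 5.30 CPM in knockout. Raji wild type was under the floor of 3 counts, and the Raji knockout libraries spread around the Daudi levels. The difference was 8.92 (SE 1.15, adjusted p = 0.00559), with a Daudi change of -0.89 (95% interval -2.40 to 0.62). It was called in 11 of the 12 fits without 1 library, the exception being the fit without Daudi knockout replicate 2, and its range was 8.50 to 9.45. Among 20 tested genes of SMAD, BMP and TGF-beta signalling SMAD1 was the 1 called (5%, against 0.773% of all genes), and their median difference was 0.06, against 0.01 for all genes.

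In the other risen genes the Raji knockout libraries did not spread around the Daudi levels: those of MAP2K5, WNK2 and THUMPD2 lay below every Daudi library and those of ABR above. MAP2K5, the kinase MEK5, was 0.239, 0.367, 0.0546 and 0.111 CPM in wild-type Raji and 2.18, 10.6, 14.6 and 4.97 CPM in knockout, against 29.4 and 19.4 CPM in Daudi wild type and 18.5 and 24.04 CPM in Daudi knockout. WNK2, a kinase that controls ion transport, was 0.222 to 1.10 CPM in wild-type Raji and 6.23 to 12.02 CPM in knockout, against 26.5 and 57.9 CPM and 61.9 and 77.4 CPM in Daudi. THUMPD2 was 0.218 to 1.13 CPM and 5.95 to 8.87 CPM in Raji, against 19.7 and 16.1 CPM in Daudi wild type and 23.7 and 20.6 CPM in Daudi knockout. In all 5 risen genes wild-type Daudi stood above wild-type Raji, as it did in 53.4% of all genes tested. Both levels entered the contrast that picked the 5, so this is no separate result. The differences were 5.67 (SE 0.99, adjusted p = 0.028) for MAP2K5, 3.27 (SE 0.66, adjusted p = 0.046) for WNK2 and 3.24 (SE 0.60, adjusted p = 0.0355) for THUMPD2. ABR, a regulator of small GTPases, was expressed throughout, at 57.8 to 102 CPM in Raji wild type, 237 to 291 CPM in Raji knockout, 165 and 145 CPM in Daudi wild type and 183 and 176 CPM in Daudi knockout. Its difference was 1.56 (SE 0.31, adjusted p = 0.046), and the interval of its Daudi change, -0.34 to 0.76, lay within 2-fold. In WNK2, THUMPD2 and ABR the Daudi knockout libraries also lay above wild type without overlap, with log2 changes of 0.72, 0.31 and 0.21. Daudi groups did not overlap in 39.7% of all genes.

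ZMAT1, a zinc finger gene on chromosome X, had the largest fall among the genes of Raji alone. It was 5.25, 2.38, 2.40 and 2.66 CPM in wild-type Raji and 0.0446, 0.135, 0.0614 and 0 CPM in knockout, whereas in Daudi it was 81.2 and 33.6 CPM in wild type and 50.8 and 65.3 CPM in knockout. Raji knockout was at or under the floor and the Daudi groups overlapped. The Raji change was -5.69, the Daudi change 0.01 (95% interval -0.94 to 0.97) and the difference -5.70 (SE 0.80, adjusted p = 0.00822), called in 11 of the 12 fits without 1 library.

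BCAR3, TTYH3 and ATP11A did not meet the rule for opposite changes but came near it. BCAR3, an adaptor of integrin signalling, was 2.86 to 3.71 CPM in wild-type Raji and 0.107 to 0.675 CPM in knockout, and in Daudi 5.81 and 7.51 CPM in wild type and 11.7 and 11.6 CPM in knockout. TTYH3 was 3.21 to 8.77 CPM and 0.184 to 1.25 CPM in Raji, and 9.17 and 7.41 CPM and 18.3 and 18.7 CPM in Daudi. ATP11A, a flippase that moves phospholipids across the membrane, was 30.1 to 46.5 CPM and 4.94 to 15.4 CPM in Raji, and 66.9 and 87.2 CPM and 144 and 123 CPM in Daudi. In all 3 the Daudi knockout libraries lay above wild type without overlap, with unadjusted p-values of 0.0986, 0.0777 and 0.0618. Their differences of -3.87, -4.21 and -2.67 were called (adjusted p = 0.0166, 0.0363 and 0.0322), and the threshold does not settle whether their Daudi change is absent or opposite.

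In the remaining fallen genes, LAT2, MELK, OPRL1, ARHGAP21, L3MBTL3 and RHOF, the Daudi groups overlapped. LAT2, an adaptor downstream of the B cell receptor, was 126, 97.0, 100 and 96.3 CPM in wild-type Raji and 41.1, 33.1, 30.1 and 38.7 CPM in knockout, against 50.1 and 37.8 CPM and 40.02 and 35.4 CPM in Daudi. MELK, a kinase of dividing cells, was 105 to 149 CPM and 28.9 to 53.5 CPM in Raji, against 35.7 to 65.0 CPM over all Daudi libraries. Raji knockout thus came down to the Daudi range in both. OPRL1, the nociceptin receptor, was 21.7 to 43.7 CPM and 8.16 to 11.9 CPM in Raji and 5.43 to 11.4 CPM in Daudi. ARHGAP21, which switches off small GTPases, was 42.1 to 77.9 CPM and 14.2 to 19.4 CPM in Raji and 40.4 to 68.2 CPM in Daudi. Differences ran from -1.33 (SE 0.26, adjusted p = 0.0383) for LAT2 to -2.24 (SE 0.45, adjusted p = 0.046) for OPRL1. The 2 genes left, L3MBTL3 and RHOF, had differences of -4.82 and -1.31, and 69.2% of the exonic bases of RHOF overlap a gene on the other strand.

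**Figure D2:**
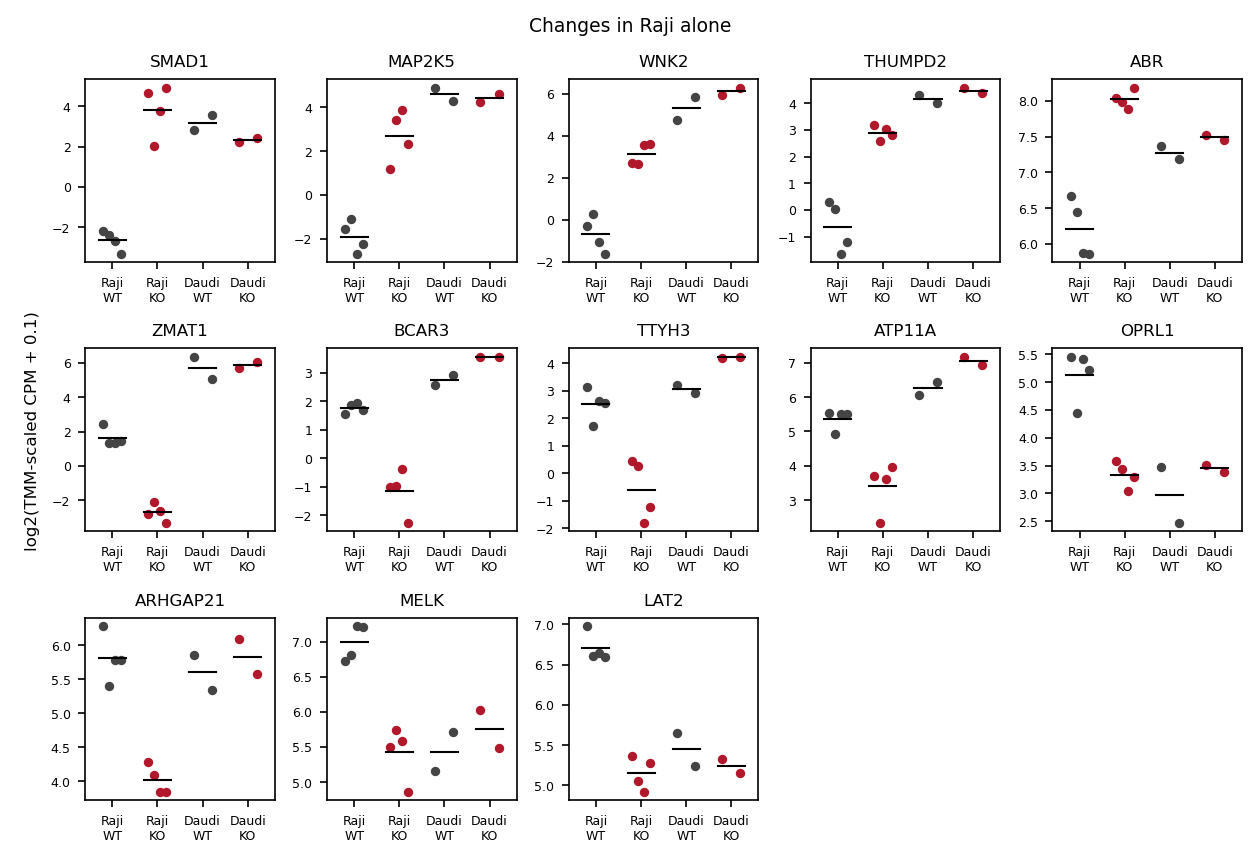
Level in each library of 13 genes that changed in Raji alone, as log2 of CPM plus 0.1, with wild type in grey, knockout in red and a line at each group's mean. The Raji groups do not overlap in any panel, and in SMAD1, BCAR3, TTYH3 and ATP11A the Daudi groups do not overlap either and differ in the other direction. In WNK2, THUMPD2 and ABR the Daudi groups do not overlap and differ in the same direction as in Raji.

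A change in Daudi alone was the largest class, with 37 genes fallen (0.308% of those tested) and 14 risen (0.116%), and all 51 passed adjustment within Daudi. The 95% interval of the Raji change lay within 2-fold for 34 of the 51, so for most of them a Raji change of 2-fold or more was outside the interval. A mean under 1 CPM in both Raji groups was found for 2, CSRNP3 and MOXD1. Of the 37 fallen genes, 11 stood on a list of interferon-stimulated or interferon-signalling genes and 26 on neither. Those lists do not hold every gene that interferon raises, so 26 is not a count of genes outside the interferon response. In 34 of the 37 Daudi wild-type replicate 1 was above replicate 2, against 54.7% of all genes tested, and in 24 by at least 2-fold, against 14.8% of all genes. The median ratio of the 2 libraries over the 37 was 2.33. The part of this spread between the wild-type libraries in the class was not tested. Without replicate 1, 13 of the 37 were called and 24 were not.

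Of 36 interferon-stimulated effectors tested, 29 fell within Daudi, against 1.82% of all genes, and 0 were called within Raji, where 19 were under 1 CPM in both groups. For the difference between lines 6 (16.7%) were called and all 6 were higher in Raji, against 0.474% of all genes called in that direction, while 30 were not called. The median level of the list was 0.358 to 0.61 CPM in Raji wild type, 0.0677 to 0.16 CPM in Raji knockout, 329 and 91.1 CPM in Daudi wild type and 4.46 and 1.39 CPM in Daudi knockout. The median difference was 3.77, or 3.58 without the 5 members with a group at 0, against 0.01 for all genes. Of the 30 members not called, 23 fell in Daudi. Of the 19 under 1 CPM in both Raji groups 0 were called for the difference. The median SE of the difference was 1.36 in the list, against 0.363 over all genes. Daudi wild-type replicate 1 was above replicate 2 in all 36 members, against 54.7% of all genes. The part of low counts and of this spread in the SE was not tested. IFI27 went from a mean of 809.5 to 2.502 CPM in Daudi and stood at 0.0893 and 0.0376 CPM in Raji. Its difference of 7.51 (SE 2.31) was not called (adjusted p = 0.182).

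ISG15, a ubiquitin-like protein and the member with the smallest p, was 11.1, 17.97, 19.8 and 20.6 CPM in wild-type Raji and 8.96, 6.56, 16.1 and 16.6 CPM in Raji knockout. Daudi stood at 1252 and 536 CPM in wild type and 27.9 and 10.1 CPM in knockout. The Raji groups overlapped, and in Daudi knockout 1 library lay within the Raji range and 1 just above it. The Raji change was -0.52 (95% interval -1.39 to 0.35), the Daudi change -5.56 (SE 0.66) and the difference 5.03 (SE 0.72, adjusted p = 0.00923). Without Daudi wild-type replicate 1 it was 4.30 (adjusted p = 0.04). OAS2, which senses double-stranded RNA, was 50.1 to 67.0 CPM and 41.1 to 60.4 CPM in Raji and fell from 1495 and 659 CPM to 171 and 125 CPM in Daudi, with a difference of 2.62 (SE 0.42, adjusted p = 0.0189) that was 1.91 (adjusted p = 0.0449) without Daudi wild-type replicate 1. IFIT2 fell from 974.7 and 172 CPM to 11.2 and 5.81 CPM, IFI6 from 335 and 114 CPM to 5.20 and 0.825 CPM, and ISG20, an exonuclease, from 459 and 226 CPM to 57.8 and 63.1 CPM. All 3 were measurable in Raji, with means of 1.86 and 1.14 CPM for IFIT2, 3.40 and 2.10 CPM for IFI6 and 57.4 and 72.7 CPM for ISG20 in wild type and knockout. Their differences were 5.37, 5.52 and 2.84 (adjusted p = 0.0346, 0.0483 and 0.0322), and without Daudi wild-type replicate 1 they were 3.63, 4.55 and 2.25 and missed the threshold.

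Sensors and signalling proteins of the interferon pathway followed. Of 31 tested, 6 (19.4%) were called, all higher in Raji, against 0.474% of all genes called in that direction, and all in the class of Daudi alone. The median difference was 1.11 over the list, against 0.01 for all genes. IFIH1, the RNA sensor MDA5, was 45.1, 34.6, 44.6 and 44.2 CPM in wild-type Raji and 53.6, 48.0, 47.4 and 36.2 CPM in Raji knockout. In Daudi it fell from 204 and 56.7 CPM to 6.94 and 5.34 CPM, below the Raji level. The difference was 4.54 (SE 0.56, adjusted p = 0.00545), called in 11 of the 12 fits without 1 library, and 3.34 (adjusted p = 0.00118) without Daudi wild-type replicate 1. DDX58, the sensor RIG-I, fell from 92.2 and 25.8 CPM to 4.81 and 2.36 CPM and was 2.33 to 4.37 CPM over all Raji libraries, with a difference of 3.82 (SE 0.65, adjusted p = 0.0254) that was 2.63 (adjusted p = 0.0941) without Daudi wild-type replicate 1. IRF9 fell from 279 and 64.9 CPM to 22.9 and 13.9 CPM and was 10.99 to 17.4 CPM in Raji, with a difference of 3.27 (SE 0.63, adjusted p = 0.0383). Without Daudi wild-type replicate 1 the difference of IRF9 was 1.87 (adjusted p = 0.0979), less by over 1.5 times, and 48.4% of its exonic bases overlap a gene on its own strand. Further members were close to 0: IFNAR1, a subunit of the interferon receptor, differed by 0.07 (adjusted p = 0.971) and the kinase JAK1 by 0.09 (adjusted p = 0.978).

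MHC class I genes, which interferon also raises, had 0 of 20 called for the difference, although 19 of the 20 differences were positive and the median was 0.58. HLA-F was at 2.76 (SE 0.63, adjusted p = 0.0735) and the transporter TAP1 at 1.51 (SE 0.47, adjusted p = 0.186), both having fallen within Daudi. In this list 8 members, against 13.1% of all genes, had an unadjusted p under 0.05. MHC class II genes had 0 of 20 called, with a median of 0.36. There too 19 of the 20 differences were positive, and 6 members had an unadjusted p under 0.05. Over all genes 6096 of 12027 differences were positive.

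The interferon-stimulated response element was searched as GAAA, any 2 bases and GAAA again, on both strands, with overlapping matches joined, in the same promoters, of which 77 of the 93 called genes and 9699 of the 12027 tested genes had one. The letters were found in 7 of 28 promoters of genes fallen in Daudi alone (25%), in 0 of 11 of those risen in Daudi alone, in 0 of 13 of the Raji class and in 2 of 23 of genes with opposite changes (8.7%), CEACAM1 and ZBTB33, against 3.12% of all promoters tested. The 7 were IFI6, IFIH1, ISG15, ISG20, GCA, SPARCL1 and TRIM69. Transcripts of SPARCL1, TRIM69 and ZBTB33 fell in Daudi knockout too, with log2 changes of -4.41, -2.50 and -0.38, but their stretches are not printed here. The stretches of 6 other genes are shown, with every match in capitals, because their transcripts fell in Daudi knockout. Each ends before the RefSeq start site. They are chr1:1013344-1013439 on the plus strand for ISG15, chr1:27672236-27672388 on the minus strand for IFI6, chr15:88638907-88638996 on the plus strand for ISG20, chr2:162318685-162318883 on the minus strand for IFIH1, chr2:162318656-162318745 on the plus strand for GCA and chr19:42528548-42528637 on the minus strand for CEACAM1.
ISG15: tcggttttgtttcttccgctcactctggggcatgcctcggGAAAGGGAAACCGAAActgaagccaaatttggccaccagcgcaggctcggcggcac
IFI6: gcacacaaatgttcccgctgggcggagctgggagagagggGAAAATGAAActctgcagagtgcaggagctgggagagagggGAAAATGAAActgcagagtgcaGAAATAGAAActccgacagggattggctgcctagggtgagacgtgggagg
ISG20: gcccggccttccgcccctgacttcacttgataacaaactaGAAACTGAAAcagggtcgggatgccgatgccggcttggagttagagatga
IFIH1: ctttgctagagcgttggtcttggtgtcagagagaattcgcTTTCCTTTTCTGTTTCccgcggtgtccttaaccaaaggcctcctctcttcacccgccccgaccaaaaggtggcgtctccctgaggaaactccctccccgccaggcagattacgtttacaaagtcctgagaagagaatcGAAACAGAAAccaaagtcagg
GCA: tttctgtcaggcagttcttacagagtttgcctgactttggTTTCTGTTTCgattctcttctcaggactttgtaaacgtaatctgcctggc
CEACAM1: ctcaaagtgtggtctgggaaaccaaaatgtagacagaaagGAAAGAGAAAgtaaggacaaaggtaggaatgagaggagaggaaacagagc

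IFIH1 and GCA lie head to head on chromosome 2, and their windows overlap, so that 1 match is read in both. GCA, the calcium-binding protein grancalcin, fell with IFIH1: it was 4.49 to 13.5 CPM over all Raji libraries and went from 24.4 and 4.69 CPM to 0.552 and 0.629 CPM in Daudi. Its difference was 4.56 (SE 0.83, adjusted p = 0.0322), and 2.93 (adjusted p = 0.0941) without Daudi wild-type replicate 1. Among the 26 fallen genes on no interferon list were also RNF213, SLFN5, SAT1, NT5C3A and PARP10, named after their values were seen. RNF213, a giant ubiquitin ligase, fell from 1274 and 413 CPM to 44.7 and 41.4 CPM in Daudi and was 132 to 287 CPM in Raji, with a difference of 4.31 (SE 0.60, adjusted p = 0.0082) that was 3.28 (adjusted p = 0.0204) without Daudi wild-type replicate 1. SLFN5 fell from 394 and 137 CPM to 17.2 and 7.66 CPM and was 1.19 to 3.04 CPM in Raji. Its difference of 4.16 (SE 0.67, adjusted p = 0.0189) was 3.21 without Daudi wild-type replicate 1 and lost its call (adjusted p = 0.0623). SAT1, which breaks down polyamines, fell from 785 and 166 CPM to 40.3 and 45.2 CPM, with a difference of 3.74 (adjusted p = 0.0344) that was 2.23 (adjusted p = 0.0883) without Daudi wild-type replicate 1.

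Some falls in Daudi ended at or near 0. ZXDB, a zinc finger gene on chromosome X, was 10.8, 10.1, 8.41 and 7.38 CPM in wild-type Raji and 9.36, 8.05, 7.86 and 6.62 CPM in Raji knockout. Daudi had 9.12 and 5.14 CPM in wild type and 0 CPM in both knockout libraries, at least 124-fold lower. The wild-type lines stood alike and no count of the transcript was left in Daudi knockout. The difference was called in all 12 fits without 1 library (fitted 9.91, SE 0.76, adjusted p = 0.000325). ZXDB has a near-identical copy, ZXDA, between which reads may be divided. SLFN13, a nuclease of tRNA, was 1.91 to 3.85 CPM over all Raji libraries, 10.4 and 1.83 CPM in Daudi wild type and 0 CPM in both Daudi knockout libraries, at least 110-fold lower. Daudi wild-type replicate 1 held 251 of its 288 wild-type counts, and without it the bound was 31.0-fold and the difference was still called (adjusted p = 0.00536). RP11-514P8.6, of which 93.2% of the exonic bases overlap another gene on the same strand, was 4.31 to 10.9 CPM in Raji and went from 13.2 and 5.29 CPM to 0 in Daudi, at least 163-fold lower, or 89.5-fold without Daudi wild-type replicate 1, where its difference was called too (adjusted p = 0.0181).

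UST, which sulfates sugar chains of proteoglycans, was 103, 35.2, 43.6 and 44.6 CPM in wild-type Raji and 47.4, 42.2, 24.2 and 13.9 CPM in knockout, and fell from 21.2 and 29.002 CPM to 0.315 and 0.0393 CPM in Daudi. Its difference was 6.27 (SE 0.99, adjusted p = 0.0169), with a Raji change of -0.83 (unadjusted p = 0.0764) just outside the threshold. The last of the named falls was that of APOL3, an apolipoprotein L, which was 18.4 to 28.9 CPM and 9.54 to 21.4 CPM in Raji and fell from 91.0 and 28.5 CPM to 1.26 and 0.55 CPM in Daudi, with a difference of 5.36 (SE 0.75, adjusted p = 0.00822) that was 4.29 (adjusted p = 0.0266) without Daudi wild-type replicate 1. For UST the value without that library was 6.48 (adjusted p = 0.0422). LUZP1 and YBX3, named after their values were seen, fell in Daudi with wild-type libraries less than 2-fold apart. LUZP1, a protein of the cytoskeleton, was 48.0 to 78.0 CPM in Raji and went from 2.16 and 1.43 CPM to 0.0789 and 0.118 CPM in Daudi, with a difference of 4.39 (SE 0.47, adjusted p = 0.00229) that was called in all 12 fits without 1 library. YBX3, an RNA-binding cold shock protein, was 355 to 452 CPM in Raji and went from 61.8 and 74.7 CPM to 22.1 and 20.4 CPM in Daudi, with a difference of 1.753 (SE 0.21, adjusted p = 0.0038) called in 11 of the 12.

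The 14 genes risen in Daudi alone started below the level of wild-type Raji, though not all from a low level. In 3 of them Daudi wild type was within 2-fold of Raji wild type, against 66.6% of all genes. The mean of Daudi wild type was above that of Raji wild type in 0 of the 14, against 53.4% of all genes tested. In 9 Daudi knockout came within 2-fold of Raji knockout, against 67.6% of all genes. The levels compared here also entered the contrast that picked the 14, so these shares are no separate result. NAXD, which repairs damaged NAD(P)H, was the clearest case. It was 21.4, 18.8, 17.3 and 17.9 CPM in wild-type Raji and 21.4, 21.2, 18.2 and 18.7 CPM in Raji knockout, and in Daudi 0.332 and 0.296 CPM in wild type and 7.49 and 9.94 CPM in knockout. The Raji change was 0.08 (95% interval -0.24 to 0.40), and Daudi rose by 4.76 on the log2 scale (SE 0.28). The difference of -4.68 (SE 0.31) had the smallest adjusted p of all genes, 4.77e-05, and was called in all 12 fits without 1 library. NAXD lies on chromosome 13 from 110615460 to 110639993.

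BICC1, an RNA-binding protein of early development, was 9.54 to 14.6 CPM in wild-type Raji and 7.04 to 17.2 CPM in Raji knockout. It was 0 CPM in both Daudi wild-type libraries and 8.24 and 4.05 CPM in knockout, at least 90.8-fold higher (59.8-fold without Daudi knockout replicate 1), and was called in all 12 fits without 1 library. SPIN2B, a reader of histone marks with a near-identical copy, SPIN2A, on chromosome X, had 1 count in Daudi wild type and 0.749 and 2.24 CPM in knockout, a ratio of 66.3 (counting interval 11.6 to 2654) that was 33.2 without Daudi knockout replicate 2, against 2.57 to 5.73 CPM over all Raji libraries. SOX4, a transcription factor of B cell precursors, was 0.622 and 0.494 CPM in Daudi wild type and 10.6 and 5.34 CPM in knockout, against 12.9 to 17.5 CPM and 9.67 to 29.4 CPM in wild-type Raji and knockout, with a difference of -3.27 (SE 0.62, adjusted p = 0.0363). In the list of pre-B cell receptor and recombination genes SOX4 was the 1 called of 8 (12.5%, against 0.773% of all genes).

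PDE4D and GAMT, both enzymes, rose as well. PDE4D, which breaks down cAMP, was 1.33 and 0.988 CPM in Daudi wild type and 7.02 and 7.86 CPM in knockout, and 9.45 to 18.7 CPM over all Raji libraries. GAMT, the last enzyme of creatine synthesis, was 0.124 and 1.14 CPM in Daudi wild type and 8.75 and 8.33 CPM in knockout, and 16.4 to 34.1 CPM in Raji. Daudi knockout stayed under the Raji range in both. RUNX1T1, a transcriptional corepressor, rose from 3.77 and 1.68 CPM to 19.2 and 38.7 CPM in Daudi and was 7.10 to 22.5 CPM in Raji, and SPECC1 from 1.33 and 0.889 CPM to 18.1 and 8.29 CPM against 4.73 to 17.0 CPM in Raji. The differences were -2.40 (SE 0.48, adjusted p = 0.046) for PDE4D, -3.96 (SE 0.73, adjusted p = 0.0344) for GAMT, -4.07 (SE 0.62, adjusted p = 0.0144) for RUNX1T1 and -3.497 (SE 0.69, adjusted p = 0.0426) for SPECC1. The value of GAMT was -6.19 without Daudi wild-type replicate 2 and -3.06 without Daudi wild-type replicate 1. USP38, a deubiquitinase named after its values were seen, had a narrower spread, at 17.7 to 21.6 CPM over all Raji libraries and 5.93 and 7.31 CPM in Daudi wild type against 24.01 and 20.1 CPM in knockout, with a difference of -1.63 (SE 0.23, adjusted p = 0.0079).

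**Figure D3:**
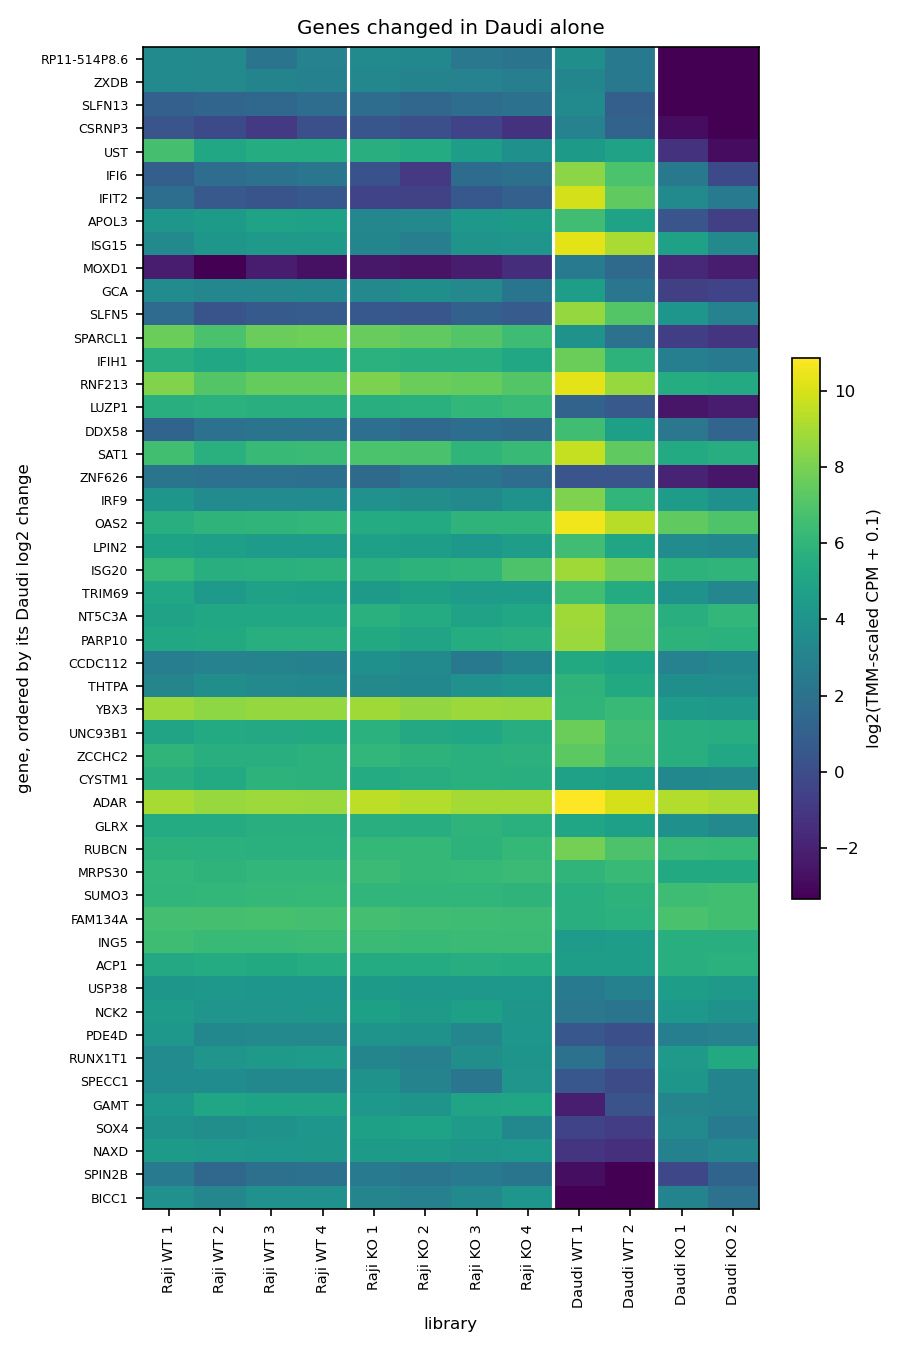
Heat map of 50 of the genes that changed in Daudi alone (rows, from the largest fall at the top to the largest rise at the bottom) in the 12 libraries (columns), coloured by log2 of CPM plus 0.1. The Raji columns stay alike along a row, Daudi wild type 1 is brighter than 2 for most fallen genes, and the Daudi knockout columns are darker at the top and brighter at the bottom than Daudi wild type.

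In 2 genes both lines changed the same way, by different amounts. WASF3, an actin regulator of the WAVE family, was 0.955, 0.825, 0.819 and 0.61 CPM in wild-type Raji and 58.6, 24.8, 35.6 and 53.8 CPM in Raji knockout. In Daudi it was 6.47 and 7.61 CPM in wild type and 32.5 and 22.1 CPM in knockout. The groups did not overlap in either line, and the knockout levels of the lines met. The log2 changes were 5.75 (SE 0.33) and 1.96 (SE 0.37, adjusted p = 0.0173), and the difference was 3.79 (SE 0.48, adjusted p = 0.00559), called in 11 of the 12 fits without 1 library. Of its exonic bases 38.3% overlap a gene on the other strand. TMEM154, a membrane protein named after its values were seen, fell by 3.28 in Raji and had a Daudi change of -0.87 (unadjusted p = 0.0259, adjusted p = 0.256), which was 0.00 without Daudi wild-type replicate 1.

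BCL6 itself was the called gene in 3 of the lists tied to FBXO11 and BCL6, and their shares stand against 0.773% of all genes. Of 12 tested genes of BCL6 and its corepressors, BCL6 was the 1 called (8.33%), and HDAC9, a histone deacetylase, was at -2.49 (SE 0.62, adjusted p = 0.0989). Of 23 tested germinal centre genes BCL6 was the 1 called (4.35%), and MME (CD10) rose in both lines, from means of 128 to 282 CPM in Raji and 205 to 394 CPM in Daudi, with a difference of 0.19 (SE 0.27, adjusted p = 0.842). Of 14 ubiquitin ligase subunits and reported FBXO11 substrates BCL6 was again the 1 called (7.14%), with CUL1 at -0.57 (adjusted p = 0.345) and SKP1 at 0.00 (adjusted p = 1). Of 28 tested genes reported as repressed by BCL6, 21 had a positive difference, against 6096 of all 12027 genes. Their median was 0.63, against 0.01 for all genes. Within Raji 4 fell and 1 rose, against 1.68% and 0.923% of all genes. Within Daudi 6 fell and 0 rose, against 1.82% and 0.798% of all genes. SLAM receptors and SAP adaptors had 1 of 8 called, SH2D1A (12.5%, against 0.773% of all genes), while the receptors CD84 and SLAMF7 were at -0.57 (adjusted p = 0.547) and 1.09 (adjusted p = 0.255). Cell cycle genes (38 tested), B cell identity (24), B cell receptor signalling (28), plasma cell (20), NF-kB (22), p53 targets (22), apoptosis (31), MYC and targets (24), cholesterol synthesis (23) and chemokines and cytokines (28) had 0 called, with medians between -0.36 and 0.80. Over all 28 lists 499 genes were tested, and 18 of the 93 called genes stood on a list and 75 on none.

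Most changes called in 1 line were not called differences between lines. Within Raji 313 genes were called (2.6%) and within Daudi 315 (2.62%). The difference was called for 25 of the 313 and for 69 of the 315, against 0.773% of all genes. Of the 313, 292 were not called in Daudi, yet for 270 of these the difference was not called either. In 179 of the 270 the lines had the same sign, while over all genes tested 48.9% had opposite signs. Of the 315, 294 were not called in Raji, and for 228 of these the difference was not called, with the same sign in 157. IGLL1, a chain of the pre-B cell receptor, is an instance: it was called in Raji, falling from a mean of 96.3 to 0.346 CPM, and in Daudi was at 0 and 0.0985 CPM, so that its difference of -11.99 (SE 3.04) was not called (adjusted p = 0.111). The phosphatase PTPN6 fell by 2.54 in Raji and had a Daudi change of -0.75, with a difference of -1.79 (adjusted p = 0.105). CCL3, a chemokine, fell in both lines, from means of 3.81 to 0.0986 CPM in Raji and 5.60 to 0.197 CPM in Daudi, with a difference of -0.42 (SE 0.92, adjusted p = 0.915). CSTA, an inhibitor of cysteine proteases, rose in Daudi by 3.91 and was at 0.127 and 0.061 CPM in Raji, with a difference of -5.14 (adjusted p = 0.0706).

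The count of called genes moved with single libraries. Without 1 library it ran from 6, without Daudi knockout replicate 2, to 500, without Daudi wild-type replicate 2, and was 35 without Daudi wild-type replicate 1 and 35 without Daudi knockout replicate 1. In these 4 fits 1 Daudi group has 1 library, which is assumed to vary like the others. Without Raji wild-type replicates 1 to 4 it was 109, 59, 29 and 30 and without Raji knockout replicates 1 to 4 it was 51, 54, 52 and 112. With Raji wild-type libraries 3 and 4 summed as 1 it was 29, all of them among the 93. With the close pairs of Raji knockout summed too, it was 9: BICC1, WASF3, MAP2K5, BCAR3, FRMD6, LUZP1, SMAD1, ZXDB and NAXD. All 25 genes with opposite changes kept the signs of both lines in all 12 fits without 1 library. The same held for 9 of 15 of the Raji class and 40 of 51 of the Daudi class. These counts cannot compare the classes, because opposite changes were sorted by an unadjusted p under 0.05 in both lines, from the same libraries. Genes of the Raji and Daudi classes missed that threshold in the other line, where a small change can switch sign. Kept signs are also not a kept class. Of the 25, FRMD6 was the only gene sorted as opposite in all 12 fits, and KIAA1586 was sorted so in 7. Among the named genes, ABR, LAT2, IFI6, IRF9, SPECC1 and PDE4D were called in 2 of the 12 fits, and BCL6, SSTR3, N4BP1, NETO2, NEK6, WNK2, THUMPD2, OPRL1, MELK, SOX4, GAMT and IFIT2 in 3, so that their calls depend on most single libraries. The 6 genes called in every such fit were FRMD6 and KIAA1586, with opposite changes, and BICC1, LUZP1, NAXD and ZXDB, changed in Daudi alone.

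**Figure D4:**
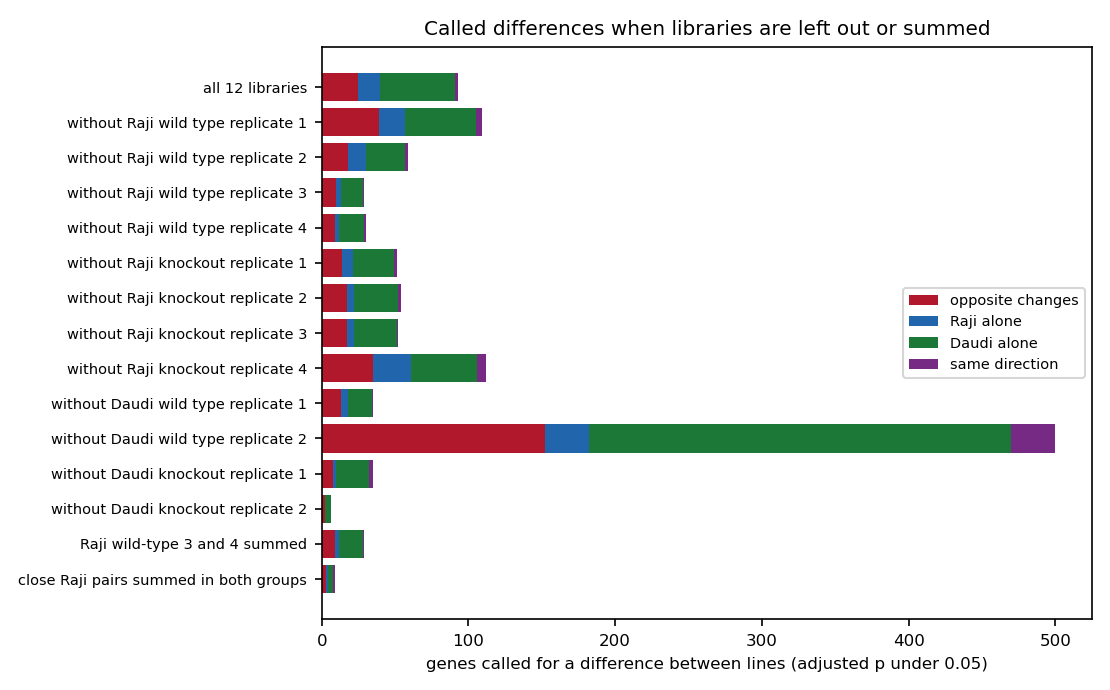
Number of genes called for a difference between lines (x axis) in the fit of all 12 libraries and in fits that leave out or sum libraries (y axis), split by class. The count is 93 with all libraries, 500 without Daudi wild-type replicate 2 and 6 without Daudi knockout replicate 2.

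By position, the share of tested genes that were called, 0.773% over all, was highest for chromosome 18, with 4 of 161 (2.48%): IMPA2, LPIN2, TAF4B and ZCCHC2. Chromosome X held 7 of 383 (1.83%): SAT1, SH2D1A, SPIN2B, SPRY3, ZBTB33, ZMAT1 and ZXDB. Chromosome 13 held 3 of 195 (1.54%), ATP11A, NAXD and WASF3. Chromosome 2, which carries FBXO11, held 11 of 764 (1.44%), among them the neighbours IFIH1 and GCA.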

How the data were processed

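RNA was measured in 12 libraries: 4 wild-type and 4 FBXO11 knockout libraries of Raji and 2 of each of Daudi, grouped by the labels. Per the labels' protocols the library kit was TruSeq RNA v2, which does not keep strand. STAR 2.5.0, RSEM 1.3.0 and the build hg38 appear in the submitters' processing notes, without their roles. The authors deposited whole-number counts per gene, not normalised; the sources used here do not say whether these are rounded estimates or how reads matching several genes were counted. Of 19919 rows, 3577 were at 0 in every library.

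The counts went into edgeR 4.0.16 (under R 4.3.3), which filtered genes by its default over the 4 groups (12027 left), scaled libraries by TMM and fitted a robust quasi-likelihood model to all 12 libraries (coefficient of variation 26.1%, 8 residual degrees of freedom). The difference between knockout changes was 1 contrast, with Benjamini-Hochberg adjustment over all 12027 genes. Standard errors come from the F statistic. Alternatives used DESeq2 1.42.0, limma 3.58.1, other scalings and filters, and libraries left out or summed. The test was checked on simulated counts. Folds "at least" put 3 counts over the group in place of 0. Total counts of 11.2M to 23.6M set the precision.

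Members and gene lists were chosen with earlier results of these data known. The naming rule took FBXO11 and BCL6. It then took, among called genes with a mean of at least 5 CPM in a group and no overlap in each line that changed, the 8 largest in each direction of each class (4 for the same way), and up to 4 called members of each list. Promoters are from RefSeq (GRCh38.p14), gene models from GENCODE 29. Some called genes and list results are not reported here; counts include them.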

Additional observations from a re-analysis of the deposited data

Results flagged for a closer look

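The genes below were called for a difference between the lines in edgeR's quasi-likelihood test of the difference itself over 12 libraries. BCL6 apart, and with called genes not reported here, 45 of 52 named genes lost the call with the close Raji pairs summed and 49 without Daudi knockout replicate 2. The values are log2 differences, Raji change minus Daudi change. With opposite changes, positive differences were those of SHROOM3 (5.85), SSTR3 (5.13), CEACAM1 (4.21), FCRL3 (3.97), OAS1 (3.54), CPEB4 (2.19), TAF4B (1.57) and N4BP1 (1.19), and negative ones those of SH2D1A (-16.82), ACY1 (-3.42), SMCO4 (-2.68), SLC19A2 (-2.58), NETO2 (-1.61), NEK6 (-1.46), BCL6 (-1.42) and NHEJ1 (-1.23).

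For genes changed in Raji alone, the positive differences were those of SMAD1 (8.92), MAP2K5 (5.67), WNK2 (3.27), THUMPD2 (3.24) and ABR (1.56), and the negative ones those of ZMAT1 (-5.70), TTYH3 (-4.21), BCAR3 (-3.87), ATP11A (-2.67), OPRL1 (-2.24), ARHGAP21 (-2.06), MELK (-1.88) and LAT2 (-1.33). For genes changed in Daudi alone, they were those of RP11-514P8.6 (10.36), SLFN13 (10.21), ZXDB (9.91), UST (6.27), IFI6 (5.52), IFIT2 (5.37), APOL3 (5.36), ISG15 (5.03), IFIH1 (4.54), DDX58 (3.82), IRF9 (3.27), ISG20 (2.84) and OAS2 (2.62), and, with the opposite sign, those of BICC1 (-10.16), SPIN2B (-5.34), NAXD (-4.68), RUNX1T1 (-4.07), GAMT (-3.96), SPECC1 (-3.50), SOX4 (-3.27) and PDE4D (-2.40). WASF3 differed by 3.79, having risen in both lines.

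Among the groups of 4 libraries, 1 library stood apart from the other 3 for some named genes, with its gap to the nearest library, as a share of the group's range, above 0.829. In Raji wild type these were CEACAM1 (0.990), N4BP1 (0.871), ZMAT1 (0.903), ATP11A (0.925), LAT2 (0.870), BICC1 (0.924), PDE4D (0.929), UST (0.862), IFIT2 (0.879), IFIH1 (0.913) and IRF9 (0.962). In Raji knockout they were NETO2 (0.894) and ISG20 (0.832). That is 13 of 104 groups looked at, where chance gives about 1 in 20 for independent groups. The 104 groups share the same Raji libraries, and no share over all genes is given. The excess is therefore no result about these genes. Raji wild-type libraries 3 and 4 were close to each other throughout, which narrows the distance between 2 of the 4 libraries, and its part in these values was not tested.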

How the results depend on the processing

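The count of 93 called differences was 502 with DESeq2 (all 93 among them), 228 with limma-voom and sample quality weights (77), 29 with Raji wild-type libraries 3 and 4 summed, 9 with the close pairs of Raji libraries summed in both groups and 39 without the first library of both wild types. Without 1 library it ran from 6 to 500. It was within 1.5 times under other scalings and filters. In the same order, opposite changes (25) numbered 116, 58, 9, 3 and 16, or 2 with adjusted p-values within each line, and 2 to 152 without 1 library. Changes in Raji alone (15) numbered 106, 53, 3, 1 and 5, and 0 to 30 without 1 library. Changes in Daudi alone (51) numbered 261, 108, 16, 4 and 16, and 4 to 288 without 1 library. Changes the same way (2) numbered 19 with DESeq2, 9 with limma-voom, 1 each with RLE scaling, a stricter filter on low counts, the summed wild-type libraries, the summed close pairs and adjusted p-values within each line, and 0 to 30 without 1 library. The BCL6 difference missed the threshold with Raji wild-type libraries 3 and 4 summed (-1.35), with the close pairs summed (-1.39) and without the first wild-type libraries (-1.38), and ran from -1.59 to -1.28 without 1 library. Where an alternative removes or joins libraries, fewer samples enter the fit; for the other settings the cause was not tested. Over the named genes, 700 alternatives kept the direction and the side of the threshold, 391 kept the direction and lost the call, and 0 reversed. No scaling moved the median of all genes by more than 0.05. No paired analysis was possible because the names of wild-type and knockout libraries share no number. The Daudi libraries held 18.3M to 23.2M counts, and no setting varied the depth. The median SE was 1.36 for the 36 interferon-stimulated effectors, against 0.363 over all genes. Of the 36, 19 were under 1 CPM in both Raji groups. Daudi wild-type replicate 1 was above replicate 2 in all 36. The part of low counts and of this spread in the SE was not tested. Leaving out 1 library, an alternative chosen after seeing the data for the folds against a group at 0, moved the bound of SLFN13 from 110 to 31.0 and that of SH2D1A in Raji from 17.3 to 5.09.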
